A study of Rattus norvegicus with 6 samples.

Results

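Platelet glycoprotein and granule genes were followed in total RNA of rat myocardium by taking the rows of 10 named genes, Gp1ba, Gp1bb, Gp9, Gp5, Gp6, Itga2b, Itgb3, Pf4, Ppbp and Treml1, from a table of 32623 genes. The genes had been picked because Gp1bb was strongly lower after ischemia while other blood cell genes were higher, so the difference between the groups chose them, and their values, and whether they pass the threshold of the fit over all genes, are given as a description and not as a test of them. The samples were 3 from sham-operated rats and 3 from rats made ischemic for 30 min, all of the WT genotype and, per the labels, male. Both groups are covered by 1 surgical protocol with anesthesia, ventilation and left thoracotomy, and in ischemia the left anterior descending coronary artery was then ligated around a tube, with the occlusion checked on the electrocardiogram. No ligation is described for sham, and strain and age are not given in the sources used here. The labels call the tissue myocardial tissue without naming the sampled region of the heart.

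Platelets are fragments of megakaryocytes without a nucleus, and they carry a limited stock of RNA made by the parent cell. They stick to a damaged vessel wall through the GPIb-IX-V complex, which binds von Willebrand factor, and through glycoprotein VI, which binds collagen, and they then bind fibrinogen with the integrin made of the Itga2b and Itgb3 subunits and empty granules filled with chemokines such as Pf4 and Ppbp. Myocardium contains platelets only in its blood and clots, so platelet RNA in a piece of heart is a small share of the total. Some of these genes, such as Pf4 and Itgb3, are also known in other cells.

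Total counts were 68529126 to 79591989 per sample, and 3 counts, the limit that a count of 0 allows, equal 0.0377 to 0.0438 CPM (counts scaled to library size). Such limits, and the intervals given for shares, cover counting error only. The summed level of 13 cardiomyocyte markers, in FPKM (fragments scaled to transcript length and library size), was 44658 to 72661 in sham and 14999 to 35170 in ischemia. Heart muscle RNA was therefore present in all 6 samples. Nppa and Myl7, named here after their values were seen, are part of that sum. Nppa alone stood at 33225, 67.7 and 25111 FPKM in sham replicates 1 to 3. In the ischemia samples it stood at 7431, 2051 and 1251 FPKM in the same order. Myl7, the atrial myosin light chain gene, was not chosen by the rule for named genes and was counted 1027088, 19555 and 530082 times in sham replicates 1 to 3, against 130049, 1549 and 1804 times in the ischemia samples in the same order. Reads on 3 Y-linked genes were 26 in sham replicate 1 and 1772 to 4318 in the other 5 samples, although the labels describe male rats. Sham replicates 1 and 3, and to a lesser degree ischemia replicate 1, therefore stood apart in atrial RNA, and sham replicate 1 in Y-linked RNA. Values without sham replicates 1 and 3, which leave 1 sham sample, are given for Gp1bb, Septin5, Pf4 and some of the lists.

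The 10 platelet markers ranged from near the detection limit to well expressed. Genes were tested from an average of 0.5 FPKM upward. Of the 10 genes, 5 reached it, and the other 5, Gp1ba, Gp9, Gp5, Gp6 and Ppbp, lay below that limit. A gene such as Gp1bb that passed this filter through 1 group only was bound to differ, so no support is drawn from the genes that passed. In the fit over all 13964 tested genes with the quasi-likelihood test of edgeR, 1 member, Gp1bb, was past an adjusted p of 0.05, as were 6.71% of all tested genes. It was lower in ischemia, as were 1.53% of all tested genes. None was past it in the higher direction, against 5.18% of all tested genes. Scaled counts of the groups did not overlap for 2 of the 10 genes, Gp1bb, lower in ischemia, and Pf4, higher in ischemia. Among all genes with a count, 32.2% did not overlap. Since the rule used this contrast, nothing is read from these shares.

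In the RefSeq promoter table (rat build GRCr8), which spans 250 bases before to 50 bases after a gene's start, 8 of the 10 genes had an entry, and Itgb3 and Pf4 had none. The promoters were searched because GATA and ETS factors are the known regulators of megakaryocyte genes. GATA letters (AGATAA as well as AGATAG, and the forms of both that begin with T in place of A, on either strand) were present in 5 of the 8 promoters and in 30.3% of all 33469 promoters of the same length. ETS cores (CGGAAG or AGGAAG, on either strand) were present in 6 of the 8 and in 45.5% of all promoters. No GATA letters were found in the promoter of Gp9, a subunit gene of the GPIb-IX-V complex. The 30-base windows around 1 GATA match of each of the 5 genes are shown. The promoters of the other subunits, Gp1bb, Gp1ba and Gp5, can so be set side by side with those of Gp6 and Itga2b. The match is in capitals and the sequence is read 5′ to 3′ on the gene's strand.
Gp1bb (GRCr8 chr11:95882462-95882491, plus strand): tgcgggcccaggAGATAGtaccctatctgc
Gp1ba (GRCr8 chr10:55851443-55851472, plus strand): tgtggagagaggAGATAAgagcctgtgccc
Gp5 (GRCr8 chr11:83948383-83948412, plus strand): tgtgccttacggAGATAGcctttttcttga
Gp6 (GRCr8 chr1:78508310-78508339, plus strand): gctggcaggaagAGATAAgtgatggcttta
Itga2b (GRCr8 chr10:87925871-87925900, minus strand): tgagctccagtcTGATAAgccgaaacttcc
The matches shown started 87 bases before the gene start in Gp1bb, 104 in Gp1ba, 112 in Gp5, 186 in Gp6 and 55 in Itga2b. Gp1ba and Gp5 had further matches nearer the gene start. In the Gp1bb window a further match on the opposite strand stands in lower case toward the 3′ end, and in the Gp6 window an ETS core in lower case ends just before the GATA letters without overlapping them. These letters describe the windows only, and binding was not measured.

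The GPIb-IX-V complex joins the products of Gp1ba, Gp1bb, Gp9 and Gp5. Gp1bb (ENSRNOG00000046981, chromosome 11 from 86520992 to 86522169, plus strand, on a build that the sources used here do not name), which encodes the beta chain of GPIb, had 1663, 365 and 1241 counts in sham replicates 1 to 3. In ischemia replicates 1 to 3 it had 10, 9 and 54 counts. Every sham sample was above every ischemia sample, sham replicates 1 and 3 were the highest, and ischemia replicate 3 was the highest of its group. Per length the level was 15.3 ± 9.45 FPKM (SD, n = 3) in sham and 0.347 ± 0.385 FPKM (SD, n = 3) in ischemia, a 44.0-fold lower mean. The log2 fold change was -5.41 ± 1.03 (SE). It was -6.94 without ischemia replicate 3 and -4.99 without ischemia replicate 2. With any one of sham replicates 1, 2 or 3 or ischemia replicates 2 or 3 left out, Gp1bb was not past the threshold, and in 4 of these 5 fits no gene of the table was. Without sham replicates 1 and 3 the log2 fold change was -4.02, in a fit with 1 sham sample that is assumed to vary like the ischemia group and in which 0 of 13662 genes were past the threshold.

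The other 3 subunit genes were near the detection limit in both groups. Gp1ba (ENSRNOG00000025959, chromosome 10 from 57260680 to 57263546, plus strand), the alpha chain that holds the von Willebrand factor site, had 53, 27 and 0 counts in sham and 15, 50 and 26 in ischemia. Gp9 (ENSRNOG00000010015, chromosome 4 from 119680112 to 119682547, plus strand), the small subunit needed for surface display of the complex, had 26, 23 and 27 counts in sham and 28, 33 and 0 in ischemia. Both genes overlapped between the groups and each was at 0 in 1 sample. Gp5 (ENSRNOG00000061705, chromosome 11 from 73015387 to 73017090, plus strand), the subunit cut by thrombin, had 10, 13 and 14 counts in sham and 7, 9 and 9 in ischemia, and its scaled counts overlapped. Mean FPKM was 0.126 ± 0.128 in sham and 0.151 ± 0.0915 in ischemia for Gp1ba, 0.194 ± 0.0248 and 0.155 ± 0.138 for Gp9, and 0.0899 ± 0.0183 and 0.0590 ± 0.0144 for Gp5 (SD, n = 3). With all genes with a count fitted, the log2 fold changes were 0.12 ± 1.41 for Gp1ba, -0.46 ± 1.33 for Gp9 and -0.62 ± 0.90 for Gp5 (SE), so no difference was detectable at this depth.

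**Figure D1:**
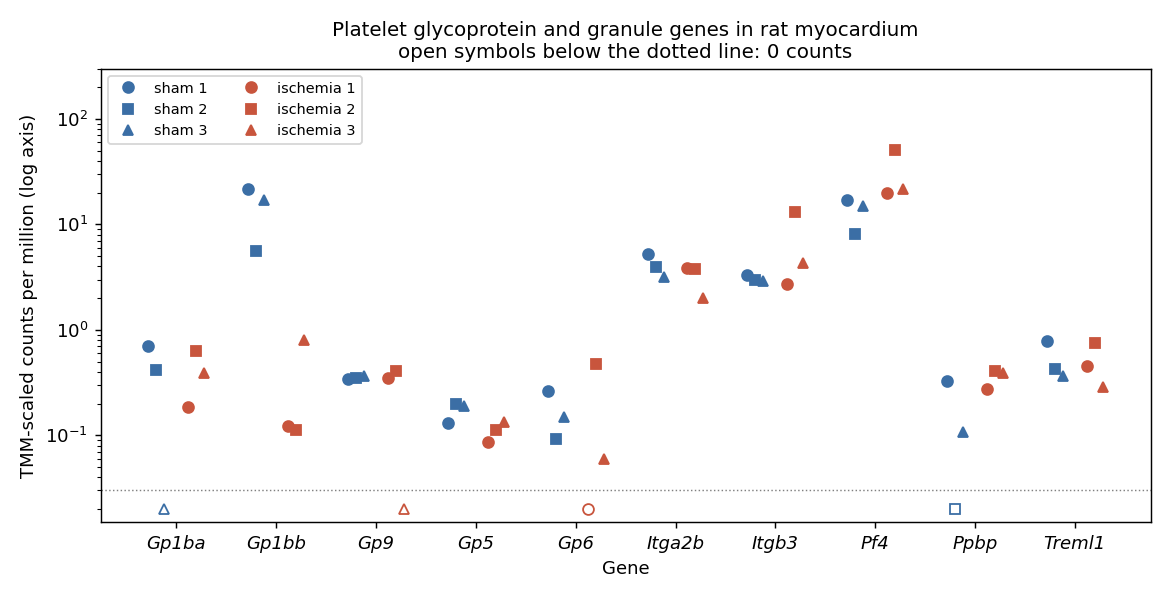
Scaled counts of the 10 platelet genes in each sample, in CPM on a log axis, with sham in blue, ischemia in red, a symbol for each replicate and open symbols for samples with 0 counts. Gp1bb lies between 5.58 and 21.8 CPM in sham and between 0.112 and 0.810 CPM in ischemia, whereas Gp1ba, Gp9, Gp5, Gp6, Ppbp and Treml1 stay below 1 CPM in every sample.

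Within each sham sample, Gp1bb was far above its partners, and in 2 of the 3 ischemia samples it was below their sum. The ratio of Gp1bb FPKM to the summed FPKM of Gp1ba, Gp9 and Gp5 does not depend on scaling between samples. In sham it reached 43.8, 12.4 and 56.1, against 0.406, 0.214 and 3.83 in ischemia. Against Itga2b, another gene known to be restricted to the megakaryocyte line, the FPKM ratio was 14.7, 4.97 and 18.7 in sham, against 0.111, 0.101 and 1.38 in ischemia. The groups did not overlap in either ratio, and ischemia replicate 3 was the highest of its group in both.

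Gp1bb lies inside another gene in the deposited table. Septin5, a septin gene known to be active in neurons and platelets, was listed on the same strand from 86512797 to 86522168, a span of 9372 bases. The listed start of Gp1bb was 8195 bases after that of Septin5, their ends were 1 base apart, and 1177 of the bases of Gp1bb (99.9%) were shared. The rule by which reads in the shared stretch were given to a gene is not given in the sources used here. Reads of both genes there cannot be told apart from these files, even with a stranded library kit, and the Gp1bb values are uncertain for that reason.

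**Figure D2:**
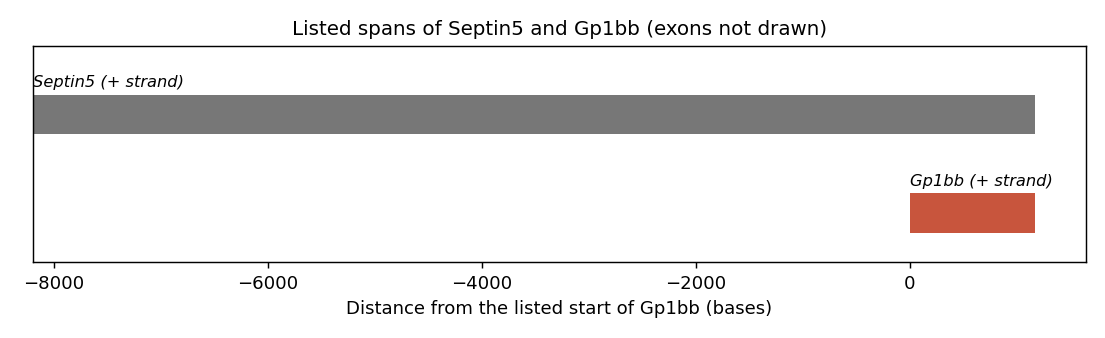
Listed spans of Septin5 and Gp1bb, with the distance from the listed start of Gp1bb in bases on the horizontal axis. Gp1bb covers the last part of the Septin5 span on the same strand, and both genes end within 1 base of each other.

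Septin5 itself had 1735, 702 and 1946 counts in sham, against 1565, 1430 and 785 in ischemia. The groups overlapped, and sham replicate 2 was the lowest sham sample for Septin5 as it was for Gp1bb. Septin5 stood at 5.24 ± 2.57 FPKM in sham and 4.42 ± 1.24 FPKM in ischemia (SD, n = 3), with a log2 fold change of -0.29 ± 0.38 (SE, adjusted p = 0.616, edgeR quasi-likelihood test with Benjamini-Hochberg adjustment). Its log2 fold change was 0.59 without sham replicates 1 and 3, so its direction rests on those samples, and it was not past the threshold there either. The summed counts of Gp1bb and Septin5 amounted to 3398, 1067 and 3187 in sham, against 1575, 1439 and 839 in ischemia. These sums overlapped between the groups, because sham replicate 2 fell among the ischemia samples. The log2 fold change of the sum was -1.06 ± 0.41 (SE), and the sum was not past the threshold that Gp1bb alone was past.

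The share of Gp1bb in the sum was 48.9% (95% Wilson interval 47.3 to 50.6), 34.2% (31.4 to 37.1) and 38.9% (37.3 to 40.6) in sham replicates 1 to 3. It was 0.635% (0.345 to 1.16), 0.625% (0.329 to 1.18) and 6.44% (4.97 to 8.30) in ischemia replicates 1 to 3. The shares did not overlap between the groups, and sham replicate 2, with the lowest sum of its group, was close to the other sham samples in its share. The groups were thus apart in how the sum was divided between the overlapping genes, while the sum itself overlapped. Whether the counting rule had a part in this was not tested.

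**Figure D3:**
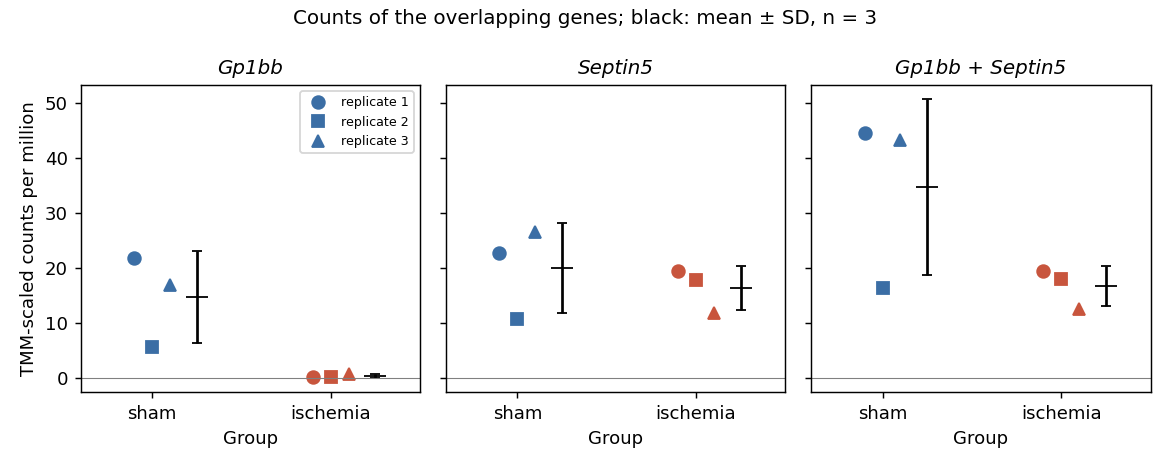
Scaled counts (CPM) of Gp1bb, of Septin5 and of both summed, for each replicate, with black bars for the mean ± SD of 3 samples. The groups are apart for Gp1bb, whereas for Septin5 and for the sum (16.3 to 44.6 CPM in sham, 12.6 to 19.5 CPM in ischemia) they overlap.

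Other expressed genes lay within 100 kb of Gp1bb. Tbx1, a transcription factor gene of heart outflow development, had 55, 55 and 76 counts in sham and 94, 154 and 41 in ischemia. Gnb1l, a WD-repeat gene, had 222, 161 and 174 counts in sham and 178, 258 and 135 in ischemia. LOC100362453 had 870, 1662 and 1139 counts in sham and 1742, 1888 and 3073 in ischemia. Scaled counts of the groups overlapped for all 3, although the unscaled counts of LOC100362453 did not, and none was past an adjusted p of 0.05.

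Markers of nerve were measured in the same samples. The summed level of 12 neuron and Schwann cell markers was 84.4, 67.6 and 371.8 FPKM in sham and 38.3, 25.6 and 23.8 FPKM in ischemia, so the groups did not overlap. Of the 11 tested genes of that list, 2 were past the threshold, both lower in ischemia (1.53% of all tested genes were), and the median log2 fold change was -3.17, beside -0.0015 over all tested genes. Mbp, a myelin gene, was among them (-2.59 ± 0.43, SE, edgeR adjusted p = 0.0349). Gp1bb and Myl7 were highest in sham replicate 1, and the neural list was highest in sham replicate 3. The part of nerve or atrial tissue in the Gp1bb difference was not tested.

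**Figure D4:**
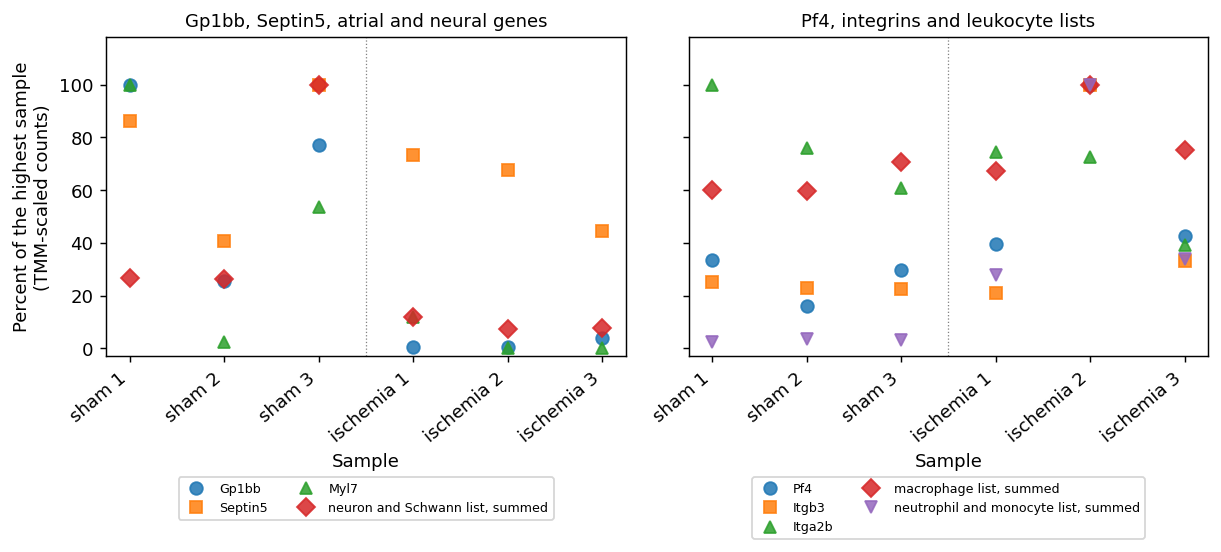
Scaled counts as a percent of the highest of the 6 samples, for Gp1bb, Septin5, the atrial gene Myl7 and the summed neuron and Schwann cell list (left) and for Pf4, both integrin genes and summed leukocyte lists (right). Gp1bb is at 25.6% or more of its highest value in sham and at 3.71% or less in ischemia, and Pf4 and Itgb3 peak in ischemia replicate 2 together with the neutrophil and monocyte list.

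The genes most like Gp1bb over the 6 samples were Clasp2 (Pearson r = 0.986), Sertad4 (r = 0.984), Camk2d (r = 0.984), Plgrkt (r = 0.981) and Ccdc62 (r = 0.981), by correlation of log2 CPM. This is a description over 6 samples that share 2 groups and their library depths. Clasp2, a gene for a microtubule plus-end protein, had 2794, 1977 and 2600 counts in sham and 1277, 1141 and 1182 in ischemia. It followed Gp1bb in the order of the samples, with a smaller log2 fold change of -1.10. No platelet gene of the lists was among the 5.

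The collagen receptor gene Gp6 (ENSRNOG00000047204, chromosome 1 from 73040901 to 73064641, plus strand) was almost absent from both groups. It had 20, 6 and 11 counts in sham and 0, 38 and 4 in ischemia, with no order between the groups. The mean was 0.0626 ± 0.0377 FPKM in sham and 0.0721 ± 0.107 FPKM in ischemia (SD, n = 3). Treml1 (ENSRNOG00000040109, chromosome 9 from 14597172 to 14599594, minus strand), which encodes an alpha granule membrane receptor that reaches the surface of activated platelets, had 60, 28 and 27 counts in sham and 37, 60 and 19 in ischemia. Its groups overlapped fully, at 0.568 ± 0.283 and 0.573 ± 0.311 FPKM (SD, n = 3), with a log2 fold change of -0.08 ± 0.55 (SE). The sign rested on single samples, since the log2 fold change was 0.32 without sham replicate 1, 0.20 without ischemia replicate 3 and -0.50 without ischemia replicate 2.

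The fibrinogen receptor is a pair of chains from separate genes. Itga2b (ENSRNOG00000022071, chromosome 10 from 90398132 to 90415070, minus strand), the alpha IIb chain made only in the megakaryocyte line in most accounts, had 395, 257 and 232 counts in sham and 312, 302 and 135 in ischemia. Its groups overlapped, at 1.16 ± 0.347 FPKM in sham and 0.978 ± 0.351 FPKM in ischemia (SD, n = 3), and the log2 fold change was -0.35 ± 0.38 (SE). Itgb3 (ENSRNOG00000048449, chromosome 10 from 92667869 to 92783410, plus strand), the beta 3 chain that is also known in endothelium and macrophages, had 250, 195 and 216 counts in sham and 222, 1045 and 288 in ischemia. The high mean in ischemia, 2.88 ± 2.56 FPKM against 1.20 ± 0.183 FPKM in sham (SD, n = 3), came from ischemia replicate 2. The log2 fold change of 1.13 ± 0.59 (SE) was 0.21 without that sample.

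Itga2b is the member with enough counts to follow that is most specific for platelets. The genes whose log2 CPM was most like it over the 6 samples were Cln3 (Pearson r = 0.986), Pcdhb22 (r = 0.976), Morc4 (r = 0.964), Tmbim4 (r = 0.960) and Syf2 (r = 0.928), none of them a gene of the platelet lists. None of the 5 was past the threshold. Cln3, a lysosomal membrane protein gene, had 1219, 958 and 979 counts in sham and 1111, 1125 and 753 in ischemia.

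The granule chemokines differed widely in level. Pf4 (ENSRNOG00000028015, chromosome 14 from 18848549 to 18849258, minus strand), platelet factor 4, a chemokine stored in alpha granules whose RNA is also known in tissue macrophages, had 1290, 535 and 1110 counts in sham and 1614, 4059 and 1443 in ischemia. Every ischemia sample was above every sham sample, although ischemia replicates 1 and 3 were only slightly above sham replicate 1. The level was 40.7 ± 17.5 FPKM in sham and 98.5 ± 62.0 FPKM in ischemia (SD, n = 3), 2.42-fold higher. The log2 fold change of 1.20 ± 0.46 (SE) was 0.64 without ischemia replicate 2 and 1.89 without sham replicates 1 and 3, and Pf4 was not past the threshold. Ppbp (ENSRNOG00000002829, chromosome 14 from 18851954 to 18853315, minus strand), pro-platelet basic protein, the neighbour of Pf4 in the chemokine cluster, had 25, 0 and 8 counts in sham and 22, 33 and 26 in ischemia. At 0.154 ± 0.182 and 0.384 ± 0.0901 FPKM (SD, n = 3), its groups overlapped and its counts were too few to show a difference.

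Pf4 was also set against Itga2b within each sample. The FPKM ratio of Pf4 to Itga2b was 34.1, 21.7 and 49.8 in sham, against 53.8, 140.1 and 111.3 in ischemia, so the groups did not overlap. Ischemia replicate 2, highest for Pf4 and Itgb3, was also highest for the summed FPKM of 19 neutrophil and monocyte markers, which was 154.9 to 205.1 in sham and 2271, 8857 and 2391 in ischemia. Of the 15 tested genes of that list, 13 were past the threshold, all higher in ischemia, against 5.18% of all tested genes. With sham replicate 1, 2 or 3 or ischemia replicate 3 left out, no gene of the table was past it. The median log2 fold change of the list was 5.94, and 4.64 without ischemia replicate 2. The summed level of 10 macrophage markers was 274.1, 216.0 and 306.0 FPKM in sham and 259.6, 377.9 and 265.8 FPKM in ischemia, so the groups overlapped. Of its 10 tested genes, 2 were past the threshold, both higher (Cd68 and Cd163), against 5.18% higher and 1.53% lower of all tested genes. The groups did not overlap for 4 of the 10 with ischemia higher and for 2 with ischemia lower. Among all tested genes these shares were 22.0% and 19.1%. A log2 fold change below 0 was found for 4 of the 10. The median was 0.04, and it was -0.06 without sham replicate 2 and 0.15 without ischemia replicate 3. Without sham replicates 1 and 3 the median was 0.30. The part of leukocytes in the Pf4 and Itgb3 values was not tested. In such bulk samples fewer cells of a type and less RNA per cell cannot be told apart.

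Ordered by mean FPKM in sham, the genes ran Pf4, Gp1bb, Itgb3, Itga2b, Treml1, Gp9, Ppbp, Gp1ba, Gp5 and Gp6. By the ranges of the 3 sham samples, Pf4 and Gp1bb overlapped (although Pf4 was above Gp1bb within each sample), Gp1bb was separate from Itgb3, Itgb3 and Itga2b overlapped, and Treml1 was separate from Itga2b above it and from Gp9 after it. Neighbours among the last 5 genes overlapped. In ischemia the order was Pf4, Itgb3, Itga2b, Treml1, Ppbp, Gp1bb, Gp9, Gp1ba, Gp6 and Gp5, and there only Pf4 was separate from its neighbour. Gp1bb had moved from the second place to the sixth. The median log2 fold change of the 5 tested members, which is the value of Treml1, was -0.08, and it was 0.32 without sham replicate 1, 0.20 without ischemia replicate 3 and -0.47 without ischemia replicate 2.

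The wider platelet and megakaryocyte program was described from 72 other genes in 4 lists, of which 69 matched the table and 55 were tested. Of the 55 tested genes, 8 were past the threshold, all higher in ischemia, and none lower, against 5.18% higher and 1.53% lower of all tested genes. The groups did not overlap for 25 of them with ischemia higher and for 4 with ischemia lower, against 22.0% and 19.1% of all tested genes. The median log2 fold change was 0.65. The 8 genes are not restricted to platelets. With sham replicate 1, 2 or 3 or ischemia replicate 3 left out, 0 of the 55 and 0 of all tested genes were past the threshold.

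Among the receptors, 2 of 11 tested genes were higher, against 5.18% of all tested genes. The median log2 fold change was 0.14. It was -0.03 without ischemia replicate 2, 0.07 without sham replicate 1 and 0.41 without ischemia replicate 1. Without sham replicates 1 and 3 it was 0.36. F2rl2, the thrombin receptor PAR3, had 51, 48 and 66 counts in sham and 347, 2482 and 529 in ischemia, a log2 fold change of 4.23 ± 0.81 (SE, edgeR adjusted p = 0.0415). Ptgir, the prostacyclin receptor, had 170, 228 and 177 counts in sham and 691, 1775 and 746 in ischemia, a log2 fold change of 2.37 ± 0.44 (SE, edgeR adjusted p = 0.0384). Both were highest in ischemia replicate 2. Of the 3 receptor genes with the highest level, Fcer1g, the signalling partner of Gp6 that myeloid cells also carry, stood at 43.2 FPKM in sham and 271.0 in ischemia without being past the threshold. Cd9, a tetraspanin, stood at 79.3 and 74.5 FPKM, and Pear1, an adhesion receptor, at 7.83 and 8.23 FPKM.

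Among the granule genes, 3 of 17 tested were higher, against 5.18% of all tested genes. The median log2 fold change was 0.16. It was 0.36 without sham replicate 1, 0.27 without sham replicate 2 and 0.25 without ischemia replicate 3. Without sham replicates 1 and 3 it was 0.58. Thbs1, thrombospondin 1, had 670, 384 and 986 counts in sham and 9955, 93837 and 26702 in ischemia, a log2 fold change of 5.92 ± 0.95 (SE, edgeR adjusted p = 0.0334). Selp, P-selectin, which endothelium also stores, had 189, 352 and 422 counts in sham and 3908, 10263 and 2612 in ischemia, a log2 fold change of 3.99 ± 0.60 (SE, edgeR adjusted p = 0.0303). Thbs1 and Selp are known outside platelets, and the smallest ischemia count of each was several times its largest sham count. Clu and Sparc, secreted proteins made by many tissues, were among the genes with the highest levels, at 1952 and 1192 FPKM in sham and 1059 and 691.6 FPKM in ischemia, and their groups overlapped.

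Among the signalling genes, 2 of 17 tested were higher, against 5.18% of all tested genes. The median log2 fold change was 1.21, the highest of the 4 lists, and 0.78 without ischemia replicate 2. Fermt3, kindlin 3, which activates integrins in all blood cells, had 670, 660 and 860 counts in sham and 2788, 8327 and 3922 in ischemia, a log2 fold change of 2.69 ± 0.42 (SE, edgeR adjusted p = 0.0316). Tbxas1, thromboxane synthase, had 142, 151 and 296 counts in sham and 633, 2203 and 1076 in ischemia, a log2 fold change of 2.65 ± 0.55 (SE, edgeR adjusted p = 0.0455). Of the signalling genes with the highest level, Rap1b, the small GTPase upstream of integrin activation, stood at 34.1 FPKM in sham and 84.1 in ischemia, Vasp at 33.8 and 58.3 FPKM and Tln1 at 36.4 and 52.3 FPKM, none past the threshold.

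Among the megakaryocyte regulators, 1 of 10 tested genes was higher, against 5.18% of all tested genes. The median log2 fold change was 0.56, and 0.29 without ischemia replicate 2. The higher gene was Runx1, a transcription factor of blood lineages, with 79, 69 and 159 counts in sham and 525, 1378 and 644 in ischemia. Its log2 fold change was 2.97 ± 0.52 (SE, edgeR adjusted p = 0.0361). Mafk stood at 22.2 FPKM in sham and 51.6 in ischemia, Zfpm1 at 14.5 and 11.9 FPKM and Fli1 at 8.76 and 12.4 FPKM, none past the threshold. Further regulators of the platelet line, chosen here after their values were seen, ranged from scarce to well expressed. Nfe2, a transcription factor gene for platelet production, had 272, 86 and 180 counts in sham and 693, 4024 and 530 in ischemia, without overlap, and was not past the threshold (log2 fold change 3.18 ± 0.87, SE). Meis1 went the other way, with 1637, 1264 and 1560 counts in sham and 1465, 490 and 656 in ischemia. Its scaled counts did not overlap, although the unscaled counts did, and it was not past the threshold (log2 fold change -0.86 ± 0.40, SE). Gata1 had 26 counts in ischemia replicate 2 and 0 in the other samples and Gfi1b had 0 to 91 counts per sample.

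Other genes of the platelet lists, likewise chosen after their values were seen, had far fewer counts than Pf4. P2ry12, the ADP receptor, had 66, 34 and 60 counts in sham and 17, 45 and 15 in ischemia. Clec1b, the podoplanin receptor, had 123, 62 and 65 counts in sham and 70, 222 and 41 in ischemia. Tubb1, the platelet tubulin gene, had 0, 0 and 17 counts in sham and 8, 15 and 4 in ischemia. The groups overlapped for all 3. Erythrocyte markers, the other list of blood cells without a nucleus, had no gene past the threshold among 11 tested and a median log2 fold change of -0.05, which was -0.38 without sham replicate 2, -0.31 without ischemia replicate 2, 0.10 without ischemia replicate 1 and 0.34 without sham replicates 1 and 3. They had a summed level of 4455 to 8162 FPKM in sham and 5247 to 10171 FPKM in ischemia.

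**Figure D5:**
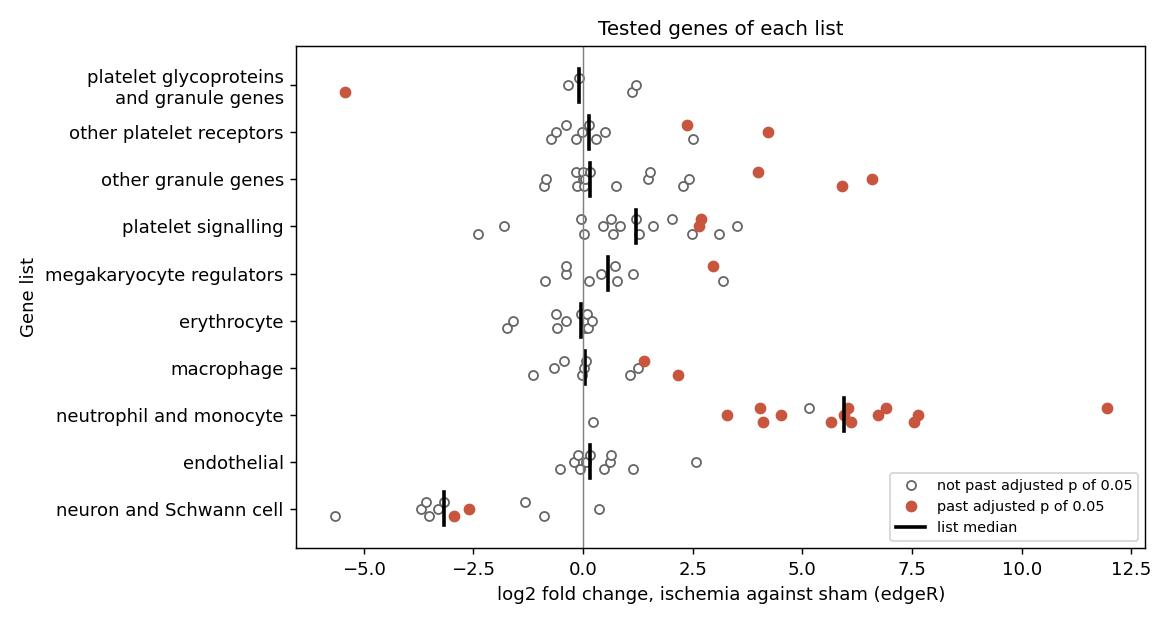
Log2 fold change of ischemia against sham for each tested gene of the 10 platelet genes (top row), 4 other platelet lists and 5 lists of other cells, with filled symbols for genes past an adjusted p of 0.05 and a bar at each list median. The 5 tested platelet glycoprotein and granule genes spread from -5.41 to 1.20, whereas the 15 neutrophil and monocyte genes lie above 0.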

How the data were processed

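Total RNA of 3 sham and 3 ischemia samples was sequenced after a stranded total RNA kit. The authors deposited 1 table of raw read counts and FPKM per gene and sample. The deposited counts were whole numbers without normalization, and the deposited FPKM values, scaled by the authors for gene length and library size, listed genes without reads at 0.0001, treated here as 0. The submitters' processing notes name STAR and HTSeq. Versions, build, annotation and counting rule are not given in the sources used here, and coordinates are as deposited.

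Genes averaging 0.5 FPKM or more were tested, which left 13964. Counts were scaled by TMM and compared with the quasi-likelihood test of edgeR 4.0.16 in R 4.3.3, two-sided, without covariates, with Benjamini-Hochberg adjustment over all tested genes and a threshold of 0.05. The script was tested on simulated data. Genes below the filter were fitted without it. Levels between genes were compared in FPKM only. The labels call the samples replicates, so p-values measure the spread between these samples. With 3 against 3 samples an exact permutation test cannot go below 0.1, and none was used.

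The 10 genes and all lists were chosen with earlier results of these data known. Named genes were the 10 members, up to 5 genes per list past the threshold, the 3 of each platelet list with the highest mean FPKM, genes within 100 kb of Gp1bb, and the 5 genes most correlated with Gp1bb and with Itga2b. Alternatives were limma 3.58.1 on log2(FPKM + 0.1) or log2(FPKM + 1), no filter, filterByExpr, median-ratio and total-count scaling, DESeq2 1.42.0, the replicate number as a block and each sample left out. The sum of Gp1bb and Septin5 and the fit without sham replicates 1 and 3 were added after seeing the data. Python 3.11.15, pandas 2.3.3 and matplotlib 3.10.9 were also used. Promoters came from RefSeq. Some genes of the lists enter the counts and medians but are not reported here by name.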

Additional observations from a re-analysis of the deposited data

How the results depend on the processing

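The log2 fold change of Gp1bb was negative under all 16 alternatives and was past an adjusted p of 0.05 in 8 of them. It was -3.39 with limma and a pseudocount of 1, -4.02 without sham replicates 1 and 3, -1.06 when summed with Septin5, and -6.94 to -4.99 with 1 sample left out. Of the 6 fits with a sample left out, Gp1bb was past the threshold in 1, without ischemia replicate 1. It was lost without sham replicate 1, 2 or 3 and without ischemia replicate 2 or 3, and the number of members called lower was 0 to 1. The cause was not tested.

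Genes called lower over the whole table numbered 93 without a filter and 83 with total-count scaling, against 214. DESeq2 called 2071 higher and 1742 lower, and of the other platelet genes 23 higher and 2 lower. The share of calls that were higher was 77.2%, 86.0% with total-count scaling and 54.3% with DESeq2. With the replicate number as a block, edgeR called 0 higher, 0 lower, 0 members and 0 other platelet genes, with 3349 genes at an unadjusted p under 0.05. The log2 fold change of Gp1bb was then -5.74. Same-numbered samples did not deviate together (correlations of -0.06, -0.09 and -0.20). With so few samples, these values cannot show whether the numbers pair the samples. Without sham replicates 1 and 3, which leaves 1 sham sample, edgeR called 0 higher, 0 lower, 0 members and 0 other platelet genes, with 1707 genes at an unadjusted p under 0.05. With Gp1bb and Septin5 summed, 0 members were called lower. With 1 sample left out, calls ranged from 0 to 1495 higher and 0 to 1115 lower, other platelet genes from 0 to 22 higher and 0 to 3 lower, and the median log2 fold change of the 5 tested members from -0.47 to 0.32. The fits with 0 calls were those without sham replicate 1, 2 or 3 or ischemia replicate 3, where edgeR had 3085, 3822, 3249 and 3029 genes at an unadjusted p under 0.05. The log2 ratio of Gp1bb to its partner subunits stayed between -6.73 and -4.65 with 1 sample left out. Depth limits Gp1ba, Gp9, Gp5, Gp6 and Ppbp, which had 62 to 171 counts over all 6 samples.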

Other observations

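The neighbours of Pf4 and Ppbp in the chemokine cluster of chromosome 14, which fall outside the rule for named genes and were chosen after their values were seen, were among the genes past the threshold. Cxcl3, a neutrophil chemokine listed from 18820168 to 18839595, had 8, 14 and 6 counts in sham and 1499, 28460 and 3222 in ischemia, a log2 fold change of 10.04 ± 1.53 (SE, edgeR adjusted p = 0.0303). Cxcl6, another neutrophil chemokine on the other side of Ppbp, listed from 18860264 to 18862407, had 0, 15 and 8 counts in sham and 2264, 2656 and 1707 in ischemia, a log2 fold change of 8.01 ± 0.99 (SE, edgeR adjusted p = 0.0272). Ppbp, which lies between Pf4 and Cxcl6 on the same strand, had at most 33 counts in a sample.

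Gp1bb was 1 of 303 tested genes that lay for at least 99% of their length inside a longer tested gene on the same strand. Of these 303 genes, 3 were past the threshold and lower in ischemia (0.99%), and 9 were higher (2.97%), against 1.53% and 5.18% of all tested genes.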
